A study of Bos taurus with 32 samples.

Results

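The 10 gene IDs described here take between 3.33% and 18.2% of all counted reads of a library, and they were compared across 4 bovine tissues, 2 kinds of embryo origin and 8 calves. The IDs were chosen as the 10 with the highest mean level among those numbered ENSBTAG00000043543 to ENSBTAG00000043585, a block given as the one holding the genes of the bovine mitochondrial genome. Level was measured as CPM, the count scaled to the total of the library. The deposited table holds 27607 Ensembl IDs, 40 of them from this block, and the 10 members carry 91.8% of the block's counts. Poly(A)-selected RNA was sequenced from hypothalamus, pituitary, testicle and adrenal of 8 male Holstein calves, 1 library per tissue and calf, which makes 32 libraries. The calves grew from embryos produced in vitro (IVP: 3208, 3209, 5833 and 5841, aged 98 to 103 days) or from embryos conceived in vivo by superstimulation and insemination (MOET, the controls: 3213, 3217, 3218 and 5932). Calves 3217, 3218 and 5932 were 102 to 104 days old and calf 3213 was 144 days old. Embryos of both kinds were carried by recipient cows, and the calves were kept in similar condition. The comparisons asked whether the members differed between tissues, between origins within a tissue and between calves of 1 origin.

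Mitochondria carry a small circular genome of their own, which codes for core subunits of the respiratory chain and of ATP synthase, for the ribosomal RNAs of the organelle and for its transfer RNAs. Each strand is transcribed as a long precursor that is cut into single RNAs, most of the messenger RNAs then receive short poly(A) tails, and their later stability sets how much of each one is found. Tissues with a high demand for oxidative energy, such as brain, are rich in these organelles. So is the adrenal cortex, where part of steroid synthesis takes place inside mitochondria.

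The IDs are given by number because neither the count table nor the RefSeq gene table used here pairs them with names, and so which mitochondrial gene each one is, and its length, are not stated. The RefSeq table lists 37 genes on the bovine mitochondrial chromosome, 13 of them protein-coding, 2 for ribosomal RNA and 22 for transfer RNA. The block has 40 IDs in the count table, so it is not identical with that gene set, and the label of the block could not be checked from the data. Of the block's IDs, 14 had 0 counts in every library, 8 had counts but a mean below 2 CPM, 18 had a mean of at least 50 CPM, and 0 lay between. For the same reason the labelled tissues could not be checked by their marker genes.

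Before any comparison, 5 of the 32 columns stand apart: all 4 libraries of MOET calf 3213 and the adrenal library of IVP calf 5833. Each library was set against the scaled geometric mean of the other 3 of its tissue and origin. Over genes with 20 to 100 expected counts, the squared distance was 0.0216 to 0.0955 times what the sampling of reads alone would give in these 5 columns, and 2.08 to 14.8 times in the other 27 libraries. Among genes with over 200 counts, 94.8% to 99.1% lay within 5% of that mean in the 5 columns, against 9.32% to 57.1% in the others. The members lay within 0.075 of it on the log2 scale in each of the 5. A column this close to the mean of its group adds no spread of its own and lowers the spread that a test sees. No label or header says how these columns were made, and the limit of 0.5 that separates them was set after their values were seen. Means ± SD, and the lowest, median and highest levels in CPM, are therefore given over the other 27 libraries. Each main test, by edgeR or limma, is given with and without the 5 columns. DESeq2, age as a covariate, no filter, other scalings and the origin fit of all 32 libraries were run only with them.

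**Figure D1:**
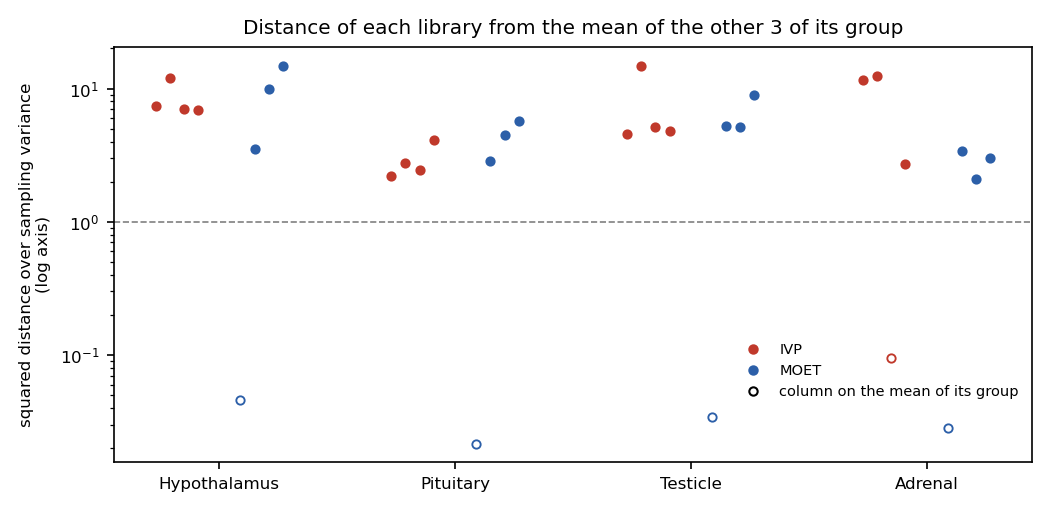
Distance of each of the 32 libraries from the scaled geometric mean of the other 3 libraries of its tissue and origin, as squared distance over sampling variance (log axis). Points are libraries, red for IVP and blue for MOET; the 5 open points, at 0.0216 to 0.0955, lie under the dashed line at 1 and the 27 filled points, at 2.08 to 14.8, lie over it.

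Library totals ran from 17357283 counts in an adrenal to 23380330 in a pituitary library. The members were counted 28433 to 800523 times per library, so the sampling of reads is a small part of their error, and the number of calves sets the precision. All 10 passed the filter on low counts in every comparison.

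The members rank among the most counted IDs of the whole table. ENSBTAG00000043561 had a mean of 25290 CPM over the 32 columns and was the second most counted of the 27607 IDs. ENSBTAG00000043570 followed with 14452 CPM and ENSBTAG00000043560 with 13251 CPM. The next 5 were ENSBTAG00000043584 (8997 CPM), ENSBTAG00000043558 (7432 CPM), ENSBTAG00000043550 (7297 CPM), ENSBTAG00000043577 (6516 CPM) and ENSBTAG00000043556 (5582 CPM). ENSBTAG00000043571, with 4432 CPM, and ENSBTAG00000043567, with 4081 CPM, closed the list. The last member stood just above the first ID left out, ENSBTAG00000043568 with 3995 CPM. This order is one of counts and not of molecules, since CPM is not corrected for transcript length.

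The members together took the largest share of the library in the hypothalamus and the smallest in the pituitary. Their summed share was 14.7% ± 2.28 in the hypothalamus (SD, n = 7), 12.9% ± 1.45 in the adrenal (n = 6), 7.14% ± 0.363 in the testicle (n = 7) and 3.95% ± 0.408 in the pituitary (n = 7). Hypothalamus (11.6% to 18.2%) and adrenal (11.1% to 15.3%) overlapped. The range of the testicle, 6.54% to 7.54%, and that of the pituitary, 3.33% to 4.43%, overlapped with no other tissue. Every calf had its lowest share in the pituitary and its next lowest in the testicle. In bulk tissue, fewer cells with many mitochondria and less mitochondrial RNA per cell cannot be told apart.

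**Figure D2:**
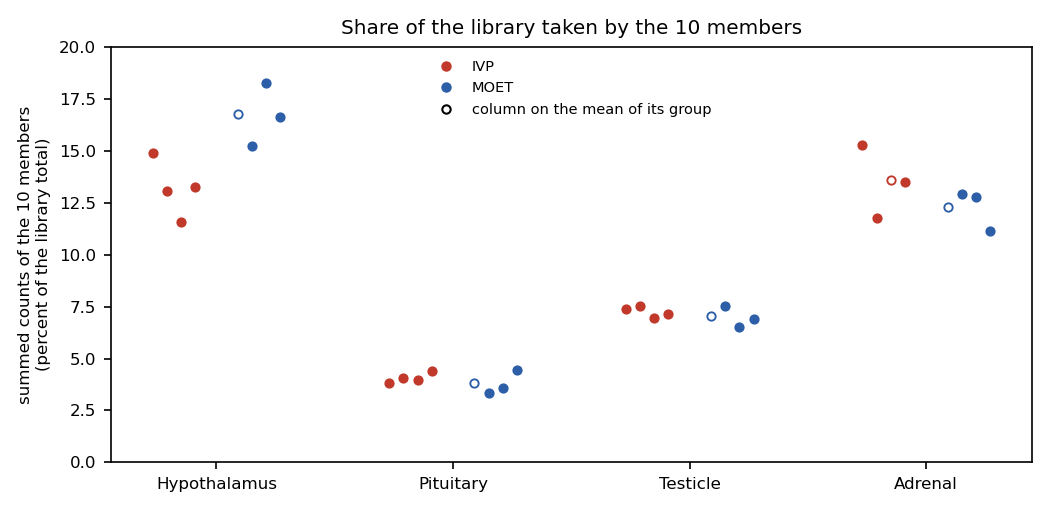
Summed counts of the 10 members as a percentage of the library total (vertical axis, from 0) in the 4 tissues; each point is 1 library, red for IVP, blue for MOET, open for the 5 columns that lie on the mean of their group. The pituitary points lie at 3.33% to 4.43% and the testicle points at 6.54% to 7.54%, with no overlap with any other tissue, while hypothalamus and adrenal points overlap.

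Against the hypothalamus, all 10 members were lower in the pituitary. ENSBTAG00000043570 had the largest difference: its lowest, median and highest levels were 11856, 20426 and 38423 CPM in the hypothalamus and 3250, 3731 and 4677 CPM in the pituitary. The log2 difference was -2.43 ± 0.19 (SE; edgeR quasi-likelihood test on all 32 libraries, Benjamini-Hochberg adjusted p = 5.58e-12). The most counted member, ENSBTAG00000043561, had the smallest, with 28765, 31057 and 38155 CPM against 11444, 13842 and 14557 CPM and a log2 difference of -1.22 ± 0.10 (adjusted p = 3.87e-12). In that comparison 77.7% of the 18242 genes tested were called in either direction and 38.0% were called lower, so that a call alone is common. The median log2 difference of the members was -2.06, beside 0.028 for all genes. For each member the 8 pituitary libraries lay below the 8 hypothalamus libraries, as they did for 26.0% of all genes. Without the 5 columns the same 10 were called (73.3% of genes).

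The testicle stood between the pituitary and the other tissues for most members. All 10 were called lower in the testicle than in the hypothalamus, with a median log2 difference of -1.46 and a range of -1.75 to -0.54; 82.0% of all genes were called in that comparison, 39.5% as lower, and without the 5 columns the count was again 10 (77.8% of genes). Against the pituitary 9 were called higher in the testicle, with a median of 0.61 over the 10, where 76.3% of all genes were called and 38.9% were called higher; without the 5 columns 9 were called (71.8%). The exception was ENSBTAG00000043567, with a lowest, median and highest level of 1608, 1800 and 3782 CPM in the testicle and 1645, 1766 and 1896 CPM in the pituitary. Its log2 difference was 0.067 ± 0.16 (edgeR, adjusted p = 0.716), and without calf 3209, which gave the highest testicle value, it was -0.15. ENSBTAG00000043561 was closest to its level in the hypothalamus, with 21062, 26356 and 28706 CPM in the testicle and a log2 difference of -0.54 ± 0.09 (edgeR, adjusted p = 9.00e-06).

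The adrenal lay near the hypothalamus. In the adrenal 9 members were called lower, with a median log2 difference of -0.45 over the 10 and a background of 77.5% of genes called and 40.2% called lower; without the 5 columns 7 were called (72.0%). For each member the ranges of these tissues overlapped, while those of 45.0% of all genes did not. ENSBTAG00000043571 differed most, with 3456, 4913 and 7539 CPM in the adrenal against 6001, 7852 and 9128 CPM and a log2 difference of -0.73 ± 0.10. ENSBTAG00000043570 was the 1 member not called, at 17555, 24543 and 33536 CPM in the adrenal and a log2 difference of 0.044 ± 0.18 (edgeR, adjusted p = 0.841). The calls of ENSBTAG00000043561 (adjusted p = 0.00995, and 0.0520 without the 5 columns) and of ENSBTAG00000043567 (0.0320, and 0.0904 without them) were the 2 lost, by edgeR. All 10 members were called higher in the adrenal than in the pituitary, with a median log2 difference of 1.48, 80.0% of genes called and 37.1% called higher; without the 5 columns all 10 were again called (74.7%). The adrenal libraries lay above the pituitary libraries for each member, as for 28.9% of all genes. They were also called higher than in the testicle, with a median of 0.81, where 76.3% of genes were called and 34.9% were called higher; without the 5 columns 9 were called (70.3%). There, too, ENSBTAG00000043561 had the smallest difference, 0.26 ± 0.09, and its adjusted p of 0.0144 by edgeR became 0.0626 without the 5 columns.

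**Figure D3:**
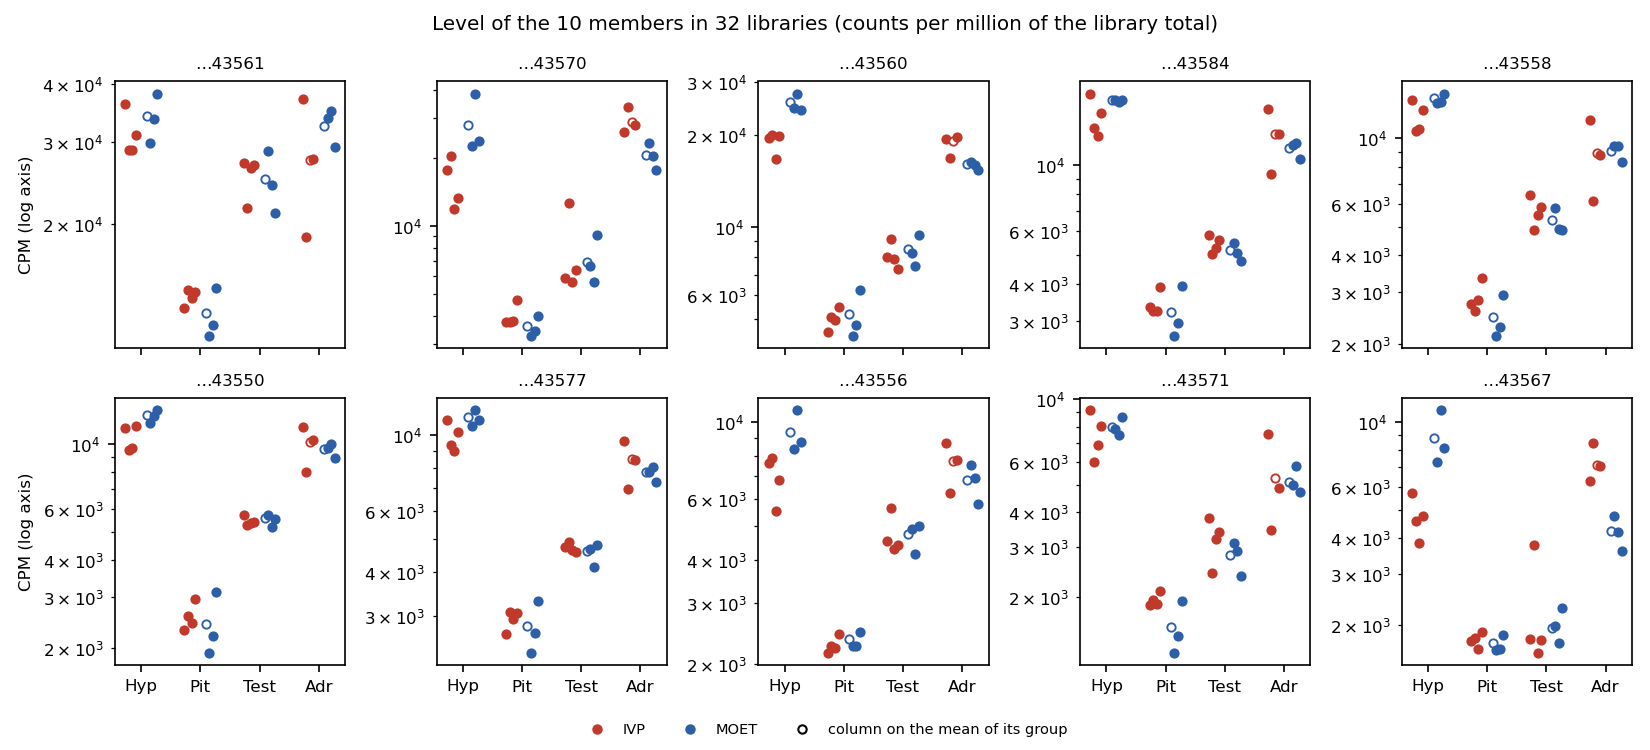
Level of each of the 10 members in CPM (log axis, 1 panel per member, headed by the last 5 digits of its ID) in hypothalamus (Hyp), pituitary (Pit), testicle (Test) and adrenal (Adr); each point is 1 library, red for IVP, blue for MOET, open for the 5 columns on the mean of their group. For every member all pituitary points lie below all hypothalamus and adrenal points, and the separate testicle point in the panel of ENSBTAG00000043567 is calf 3209 at 3782 CPM.

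The make-up of the members' counts also differed between tissues, in a measure that does not depend on how libraries are scaled. These are shares of reads from poly(A)-selected RNA and not of all mitochondrial RNA. ENSBTAG00000043561 took 34.0% ± 1.09 of the members' counts in the pituitary (SD, n = 7) and 35.2% ± 3.91 in the testicle (n = 7), but 22.2% ± 2.40 in the hypothalamus (n = 7) and 23.4% ± 4.43 in the adrenal (n = 6). The lowest pituitary and testicle libraries, at 32.3% and 28.6%, lay above the highest of the hypothalamus and the adrenal, at 24.9% and 27.4%. ENSBTAG00000043570 went the other way, with 9.61% ± 0.524 in the pituitary, 10.3% ± 3.37 in the testicle, 13.97% ± 3.84 in the hypothalamus and 19.3% ± 4.85 in the adrenal. Its count relative to that of ENSBTAG00000043561 was 0.283 ± 0.0217 in the pituitary and 0.307 ± 0.145 in the testicle, against 0.650 ± 0.255 in the hypothalamus and 0.896 ± 0.467 in the adrenal. Other members kept closer shares: ENSBTAG00000043550 took 6.30% to 7.76% on average in the 4 tissues and ENSBTAG00000043577 took 6.23% to 7.24%. No test was made on these shares, which sum to a whole.

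The numbered block is not uniform outside the members. ENSBTAG00000043553, ranked 14 in the block by mean level, which was singled out after its values were seen, had 2571 ± 576 CPM in the pituitary (SD, n = 7), 357 ± 100 in the hypothalamus (n = 7), 143 ± 91.1 in the adrenal (n = 6) and 9.85 ± 1.89 in the testicle (n = 7). Its highest tissue was the one in which each of the 10 members was lowest, apart from ENSBTAG00000043567, whose testicle and pituitary libraries overlap. The 2 IDs just under the members, ENSBTAG00000043568 and ENSBTAG00000043563, had their lowest mean in the pituitary as the members did, at 1357 ± 173 and 978 ± 259 CPM (n = 7).

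In the hypothalamus the members tended to lower levels in IVP than in MOET calves, but none passed the test. The summed share was 14.9%, 13.0%, 11.6% and 13.3% in IVP calves 3208, 3209, 5833 and 5841, and 15.2%, 18.2% and 16.6% in MOET calves 3217, 3218 and 5932, with 16.8% in the column of calf 3213. All MOET values lay above all IVP values. ENSBTAG00000043567 had 5703, 4580, 3834 and 4737 CPM in the IVP calves, in the same order, and 7259, 10961 and 8156 CPM in the MOET calves, with 8805 CPM in the column of calf 3213. ENSBTAG00000043570 had 17624, 20426, 11856 and 13233 CPM against 22519, 38423 and 23648 CPM, with 27836 CPM in that column. The origin groups of both members did not overlap, nor did those of ENSBTAG00000043560, ENSBTAG00000043550 and ENSBTAG00000043556, all lower in IVP; 2.40% of all genes had IVP below MOET without overlap. Log2 differences of IVP over MOET were -1.07 ± 0.20 for ENSBTAG00000043567 (SE; edgeR quasi-likelihood test, adjusted p = 0.136) and -0.999 ± 0.275 for ENSBTAG00000043570 (adjusted p = 0.149).

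Over the list, 0 of 10 members were called by edgeR in the hypothalamus, where 0.0560% of genes were called, and 8 had an unadjusted p under 0.05. The share of all genes at an unadjusted p under 0.05 was not taken, here or below. Such counts of members therefore have no background and cannot be set against the shares called. All 10 estimates were negative, with a median of -0.38 beside 0.027 for all genes; scaled by library totals alone, the medians were -0.22 and 0.19. Without calf 3213 the count was again 0, with 6 members at an unadjusted p under 0.05 and 0.00614% of genes called, and the median was -0.39. DESeq2's Wald test called 6 members, where it called 7.78% of genes. An edgeR fit of all 32 libraries, which shares 1 spread over tissues, also called 6, with 11.1% of genes. Both kept the column of calf 3213. The least moved member was ENSBTAG00000043571, at 9128, 6001, 6880 and 8020 CPM in IVP and 7852, 7457 and 8641 CPM in MOET calves, with overlap and a log2 difference of -0.25 ± 0.14.

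In the adrenal 9 of 10 estimates were positive and 5 members were called higher in IVP by edgeR, where 39.3% of genes were called and 20.8% were called higher. ENSBTAG00000043567 had 6279, 8452 and 7031 CPM in IVP calves 3208, 3209 and 5841 and 4742, 4183 and 3594 CPM in MOET calves 3217, 3218 and 5932. The column of calf 5833 held 7121 CPM and that of calf 3213 held 4206 CPM. ENSBTAG00000043570 had 25873, 33536 and 27954 CPM against 23213, 20415 and 17555 CPM, with 28897 and 20580 CPM in those columns. For these members and for ENSBTAG00000043560 every IVP library lay above every MOET library, as was so for 8.73% of all genes. The origins overlapped for the other 7 members. They also overlapped in the summed share, which was 15.3%, 11.8% and 13.5% in these IVP calves, in the same order. In the MOET calves it was 12.9%, 12.8% and 11.1%, with 13.6% and 12.3% in the columns of calves 5833 and 3213. The log2 differences were 0.98 ± 0.15 for ENSBTAG00000043567 (edgeR, adjusted p = 0.00885), 0.70 ± 0.14 for ENSBTAG00000043570 (adjusted p = 0.0119) and 0.42 ± 0.09 for ENSBTAG00000043560 (adjusted p = 0.0118). ENSBTAG00000043556, at 0.35 (adjusted p = 0.0479), and ENSBTAG00000043577, at 0.30 (adjusted p = 0.0386), were nearer the threshold.

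These 5 calls were lost without the columns that lie on the mean of their group. Without the adrenal columns of calves 3213 and 5833, which leaves 3 against 3 calves, 0 members and 2 of 15595 genes (0.0128%) were called by edgeR. Fewer calves and the loss of these columns cannot be told apart here, as no other pair of columns was left out. An unadjusted p under 0.05 was found for 3 members. For ENSBTAG00000043560 an unadjusted p of 0.0284 became an adjusted p of 0.129 by edgeR, so such values were common among all genes. The estimates hardly moved, but leaving out columns that lie on the mean of their group could hardly move them. By edgeR ENSBTAG00000043567 was at 0.99 (adjusted p = 0.105) and ENSBTAG00000043570 at 0.71 (adjusted p = 0.106). The median of the 10 was 0.31 with and without these columns. When 1 calf at a time was left out, 3 to 7 members were called, beside 15.6% (without 3218) to 52.5% (without 3208) of all genes. The count was 3 without 3213, 3218, 5833, 5841 or 5932. ENSBTAG00000043567, ENSBTAG00000043570 and ENSBTAG00000043560 were called each time, but each of these runs kept at least 1 of the columns of calves 3213 and 5833. Age as a covariate also left 3 (18.8% of genes), and DESeq2's Wald test called 7 (43.9%), both with the columns of calves 3213 and 5833 kept. The most counted member, ENSBTAG00000043561, showed no such difference, with 37148, 18676 and 27552 CPM in IVP and 33789, 34929 and 29291 CPM in MOET calves and a log2 difference of -0.057 ± 0.18. Calf 3209 gave its lowest adrenal value, and without that calf the estimate was 0.078.

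**Figure D4:**
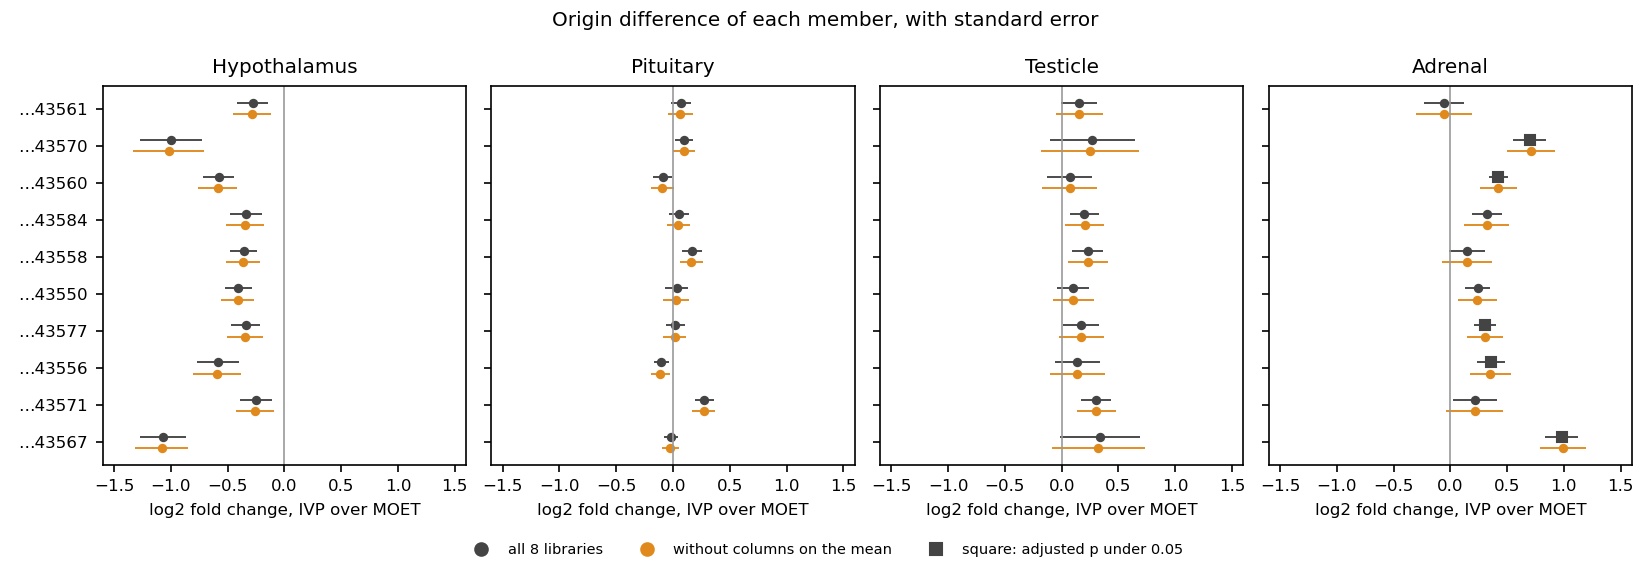
Log2 fold change of IVP over MOET with its standard error for the 10 members (vertical axis, last 5 digits of the ID) in each tissue, from edgeR; dark marks use all 8 libraries of the tissue, orange marks leave out the columns on the mean of their group, and squares have an adjusted p under 0.05. The 5 squares are in the adrenal, at 0.30 to 0.98, and none of the orange marks is a square; hypothalamus estimates run from -1.07 to -0.25.

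In the pituitary and the testicle the origins overlapped for all 10 members, as they did for most genes, with 13.0% and 7.97% of all genes without overlap. In the pituitary 0 members were called by edgeR, beside 15.3% of genes, and 1 had an unadjusted p under 0.05. For 10 members a count of 0 is near that share. Log2 differences ran from -0.10 to 0.27, the largest being that of ENSBTAG00000043571, with 1883, 1955, 1890 and 2102 CPM in IVP calves 3208, 3209, 5833 and 5841 and 1275, 1456 and 1940 CPM in MOET calves 3217, 3218 and 5932. Its adjusted p was 0.0549 by edgeR and 0.147 without calf 3213, where 0 members and 2.37% of genes were called; DESeq2 called 1 member and 18.7% of genes, and edgeR called 1 member and 17.7% of genes when MOET calf 5932 was left out. In the testicle 0 members were called by edgeR, where 0.00612% of genes were called, 1 had an unadjusted p under 0.05 and DESeq2 called 0; without calf 3213 edgeR called 0 of 10 members and 0.00605% of genes, with 0 members at an unadjusted p under 0.05. All 10 estimates were positive, at 0.070 to 0.34 with a median of 0.19, but with library totals alone ENSBTAG00000043560 was at -0.054 and ENSBTAG00000043550 at -0.018. The testicle estimates of ENSBTAG00000043567 (0.34 ± 0.35) and ENSBTAG00000043570 (0.27 ± 0.37) rested on IVP calf 3209 and were -0.17 and -0.22 without it.

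Whether the origin effect differed between tissues was tested over the 4 tissues jointly. Hypothalamus and adrenal were not set against each other alone, so a call does not say which tissues differ or in which direction. By edgeR's F test on the 32 libraries 8 members were called, where 30.3% of genes were, with adjusted p from 0.00255 for ENSBTAG00000043567 to 0.219 for ENSBTAG00000043561 over the 10. Without the 5 columns 0 members and 39 of 18423 genes (0.212%) were called by edgeR, and adjusted p-values ran from 0.0719 to 0.474. An unadjusted p under 0.05 was found for 8 members, but the share of all genes there was not taken. For ENSBTAG00000043558 an unadjusted p of 0.0439 became an adjusted p of 0.198 by edgeR, so such values were common among all genes. Leaving out 1 calf gave 1 call without calf 3213 (1.76% of genes), 2 without 3218 (4.93%), 2 without 5833 (5.01%) and 4 without 5841 (12.8%), and 7 to 9 without each of the others (14.7% to 44.1%). With library totals alone 4 were called (33.8%). Averaged over the 4 tissues of each calf, origin made little difference: 0 members were called by limma, where 0.0658% of genes were, 0 had an unadjusted p under 0.05, and log2 differences ran from -0.055 to 0.12; without the 5 columns 0 were called (0.0109%).

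Calves of 1 origin differed from one another in ways that the members did not all share. In the 27 libraries, the pooled SD of the log2 level around the group mean was 0.41 for ENSBTAG00000043570 and 0.36 for ENSBTAG00000043567, and 0.15 to 0.23 for the other 8. The testicle showed this most: the pooled SD within groups was 0.59 and 0.56 for these members and 0.074 for ENSBTAG00000043584, beside a median of 0.22 for genes with a mean of at least 100 CPM (7 libraries). In the adrenal it was ENSBTAG00000043571, at 0.36, and ENSBTAG00000043561, at 0.32, that spread most, beside a median of 0.16 (6 libraries).

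Calf 3209 shows the contrast. Its testicle held 12666 CPM of ENSBTAG00000043570, while the other IVP testicles held 5865, 5608 and 6359 CPM and the MOET testicles of calves 3217, 3218 and 5932 held 6616, 5621 and 9091 CPM. The same library was the lowest of its group for ENSBTAG00000043561, with 21590 CPM against 27052, 26356 and 26716 CPM. In its adrenal ENSBTAG00000043570 was again the highest of all 8, at 33536 CPM, and ENSBTAG00000043571 the lowest, at 3456 CPM, with a ratio of 9.70 between them; calf 3208 had a ratio of 3.43 there. Averaged over its 4 tissues, calf 3209 lay 0.42 above its group means for ENSBTAG00000043570 and 0.35 above for ENSBTAG00000043567 on the log2 scale, but at -0.23 for ENSBTAG00000043571 and -0.16 for ENSBTAG00000043558. Calf 3208 lay at -0.096 and -0.044 for the first pair and 0.27 and 0.18 above for the second. Calf 5833 lay below for both pairs on average over its 3 remaining libraries, at -0.30, -0.29, -0.079 and -0.099. Its pituitary lay slightly above for the second pair, at 0.014 and 0.043.

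Whether a calf deviated the same way in its tissues was tested with calf terms within origin. By edgeR's F test 0 members were called, where 0.696% of genes were, and 1 had an unadjusted p under 0.05, ENSBTAG00000043571 (adjusted p = 0.289). Without the 5 columns 0 were called (0.347% of genes), again with 1 at an unadjusted p under 0.05. The tissues of a calf thus gave no call. The highest and lowest libraries were taken over both origins together, so a difference between origins enters them. The 5 columns were kept, and a column on the mean of its group can hardly lie at an end. In the hypothalamus IVP calf 5833 was lowest for 7 members and MOET calf 3218 highest for 5. In the pituitary calf 3217 was lowest for 9 and calf 5932 highest for 6, both MOET. In the adrenal calf 3208 was highest for 7 and calf 3209 lowest for 6, both IVP. In the testicle IVP calves 3208 and 3209 were each highest for 4 and MOET calf 5932 was lowest for 4.

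Some members varied together more than others. Over the 27 libraries, after the mean of each tissue and origin was removed, Pearson's r was positive for 42 of the 45 pairs of members, with a median of 0.63. These points share a library and its scaling, so part of any correlation is common to all members, and the values are a description. ENSBTAG00000043570 and ENSBTAG00000043567 had an r of 0.93, ENSBTAG00000043584 and ENSBTAG00000043558 had 0.94, and ENSBTAG00000043558 and ENSBTAG00000043571 had 0.87. Other pairs were far lower: -0.26 for ENSBTAG00000043570 and ENSBTAG00000043571, and 0.00078 for ENSBTAG00000043570 and ENSBTAG00000043561. The members did not fall into separate sets: ENSBTAG00000043577 had 0.66 with ENSBTAG00000043570 and 0.77 with ENSBTAG00000043584, and ENSBTAG00000043556 had 0.85 and 0.62. ENSBTAG00000043577 and ENSBTAG00000043556 followed the sum of the other 9 most closely, with an r of 0.93 and 0.91, and ENSBTAG00000043571 and ENSBTAG00000043561 least, with 0.36 each.

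**Figure D5:**
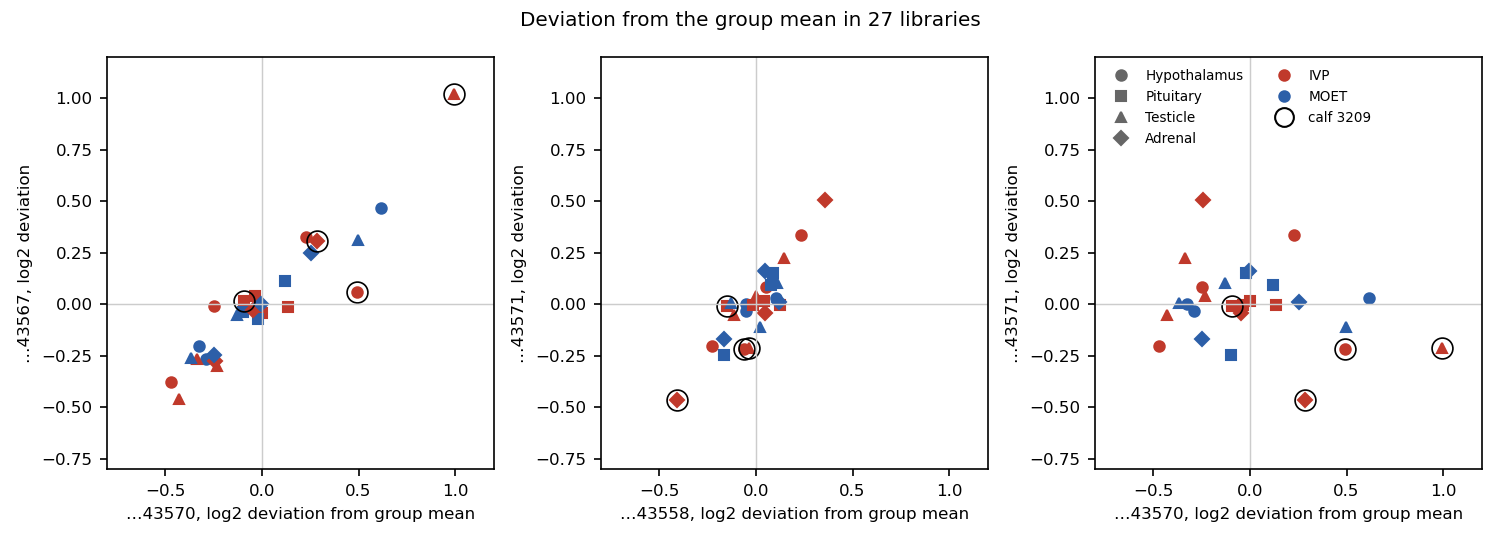
Log2 deviation of 27 libraries from the mean of their tissue and origin, for 3 pairs of members named by the last 5 digits of their IDs (axes); symbols mark tissues, red is IVP, blue is MOET, and black rings mark the 4 libraries of calf 3209. The first 2 panels show pairs with an r of 0.93 and 0.87, and the third a pair with an r of -0.26, where the rings of hypothalamus, testicle and adrenal lie to the lower right.

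The ratio of counts of the pair with the highest spread was also taken, which does not depend on scaling. The count of ENSBTAG00000043570 relative to that of ENSBTAG00000043567 was 4.89 ± 0.00740 in the adrenals of MOET calves 3217, 3218 and 5932 (SD, n = 3) and 4.02 ± 0.0859 in those of IVP calves 3208, 3209 and 5841 (n = 3), without overlap. In the pituitary it was 2.06 ± 0.0813 in MOET (n = 3) and 2.24 ± 0.183 in IVP calves (n = 4), and in the testicle 3.51 ± 0.398 (n = 3) and 3.42 ± 0.144 (n = 4), with overlap in both tissues. In the hypothalamus it spread more, at 3.17 ± 0.309 in MOET (2.90 to 3.51, n = 3) and 3.36 ± 0.747 in IVP calves (2.79 to 4.46, n = 4), again with overlap. This ratio was chosen after its values were seen and was not tested.

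Outside the block, the 3 genes whose deviations from the group means were most like those of the summed members over the 27 libraries were ENSBTAG00000016882 (r = 0.83), ENSBTAG00000007172 (r = 0.82) and ENSBTAG00000011796 (r = 0.80). They were the top of 10616 genes with a mean of at least 10 CPM, so high values were to be found by search alone, and their mean levels were 98.4, 217 and 22.9 CPM.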

How the data were processed

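The authors deposited 1 table of raw counts, 27607 Ensembl IDs by 32 columns, 1 column for each library. Per the labels' protocols, RNA integrity numbers were above 7, libraries were made from poly(A) RNA without strand information, and 100-base reads from both ends were produced on DNBSEQ and cleaned by SOAPnuke. The submitters' processing notes name STAR 2.7, HTSeq and bosTau9. The annotation release and the handling of reads that align to more than 1 place were not given in the sources used here; nuclear copies of mitochondrial sequence make the latter relevant. Reads of a gene and of one on the other strand are counted alike.

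Low counts were removed (filterByExpr, at least 10 counts in enough libraries and 15 in all); edgeR's quasi-likelihood test (TMM scaling, glmQLFit, robust) was then run, adjusting p by Benjamini-Hochberg over all genes tested, with a threshold of 0.05. The SE is the log2 fold change over the root of F. Origins were tested on the 8 libraries of a tissue; tissues, the difference between tissues, and calves were tested in 1 fit of 32. The mean over tissues used limma (trend) on calf means of log2 CPM (prior count 2). Members and lists were chosen with earlier results of these data known. All 10 members are named, with the next IDs of the block and the 3 genes most like them, which were sought in 27 libraries in place of the planned 32. The planned gene lists and cell type markers were not run, as 0 IDs could be matched to symbols. Scripts were tested on simulated data. Alternatives were other scalings, no filter, DESeq2, age as covariate, the calf as block, leaving out each calf and, chosen after seeing the data, leaving out the 5 columns.

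Among 48 pairs of libraries within groups, 0 were identical, and counts differed by a chi-square of 5.21 to 203 per degree of freedom. The number in the labels is that of the animal, so it pairs the 4 tissues of a calf and never an IVP with a MOET calf; deviations from the group means correlated across the tissues of a calf by -0.03 to 0.21 on average (7 calves). Versions were edgeR 4.0.16, DESeq2 1.42.0 and limma 3.58.1 under R 4.3.3, and matplotlib 3.10.9 under Python 3.11.15.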

Additional observations from a re-analysis of the deposited data

Results flagged for a closer look

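Dixon's test was run on the 10 members and their summed share in each of the 8 groups of 4 libraries, 88 tests in all. In 6 tests a value lay far from the other 3. In 55 of the tests (all MOET groups and the adrenal IVP group) 1 column lies on the mean of the other 3. The rate of about 1 in 20 tests by chance does not apply to them. All 6 values are from the other 33 tests, which share libraries. Of the 6, 3 were in the IVP testicles, all from calf 3209: ENSBTAG00000043570 was highest at 12666 CPM, with the others at 5608 to 6359 CPM, ENSBTAG00000043567 was highest at 3782 CPM, with the others at 1608 to 1800 CPM, and ENSBTAG00000043561 was lowest at 21590 CPM, with the others at 26356 to 27052 CPM. Calf 5841 had the highest IVP pituitary value of ENSBTAG00000043570, 4677 CPM, with the others at 3730 to 3789 CPM, and of ENSBTAG00000043584, 3921 CPM, with the others at 3241 to 3341 CPM. Calf 5833 had the lowest IVP hypothalamus value of ENSBTAG00000043560, 16767 CPM, with the others at 19534 to 20074 CPM.

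The origin effect of 8 members differed between tissues by edgeR's F test with all 32 columns: adjusted p was 0.00255 for ENSBTAG00000043567, 0.00462 for ENSBTAG00000043560, 0.0121 for ENSBTAG00000043570, 0.0142 for ENSBTAG00000043556, 0.0155 for ENSBTAG00000043550, 0.0192 for ENSBTAG00000043577, 0.0215 for ENSBTAG00000043584 and 0.0334 for ENSBTAG00000043558. Without the 5 columns that lie on the mean of their group, 0 of the 10 members were called.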

How the results depend on the processing

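The tissue differences kept their direction for all called members under every alternative run, with 10 of 10 members called for pituitary and testicle against hypothalamus and for adrenal against pituitary, 9 for testicle against pituitary, 9 or 10 for adrenal against testicle, and 6 (library totals alone) to 9 for adrenal against hypothalamus. With the calf as replicate block these counts were the same as without it, and 9 in place of 8 members were called for the difference of the origin effect between tissues. Without the 5 columns the block gave 9 for adrenal against hypothalamus, where the fit without it gave 7.

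The origin counts moved more. In the hypothalamus 6 members in place of 0 were called by DESeq2 (7.78% of all genes) and 6 in the fit of all 32 libraries (11.1%); in the pituitary 1 in place of 0 by DESeq2 (18.7%), and 0 to 1 with 1 calf left out. In the adrenal 5 became 3 with library totals alone (all-gene median -0.19), 3 with no filter, 3 with age as covariate and 0 without the 5 columns, 7 by DESeq2 (43.9%), and 3 to 7 with 1 calf left out. The difference between tissues gave 4 calls with library totals alone, 0 without the 5 columns and 1 to 9 with 1 calf left out.

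Of 1930 values of single members under an alternative, 1801 kept direction and side of the threshold, 76 lost a call, 22 gained one and 31 changed sign, none of them a called value. Reversed estimates were ENSBTAG00000043567 in the pituitary (0.046 with library totals alone, 0.0048 in the fit of 32) and averaged over tissues (-0.035 without the 5 columns), and with library totals alone ENSBTAG00000043560 (-0.054) and ENSBTAG00000043550 (-0.018) in the testicle and ENSBTAG00000043558 (-0.034) in the adrenal. With 1 calf left out, estimates that crossed 0 ranged as follows. In the pituitary ENSBTAG00000043584 ran from -0.016 to 0.090, ENSBTAG00000043550 from -0.052 to 0.10, ENSBTAG00000043577 from -0.043 to 0.068 and ENSBTAG00000043567 from -0.045 to 0.025. In the testicle ENSBTAG00000043570 ran from -0.22 to 0.47, ENSBTAG00000043560 from -0.085 to 0.18, ENSBTAG00000043556 from -0.054 to 0.22 and ENSBTAG00000043567 from -0.17 to 0.51, each below 0 without calf 3209. In the adrenal ENSBTAG00000043561 ran from -0.21 to 0.078. ENSBTAG00000043570 ran from -0.049 to 0.17 for adrenal against hypothalamus and ENSBTAG00000043567 from -0.15 to 0.18 for testicle against pituitary. Averaged over tissues ENSBTAG00000043561 ran from -0.092 to 0.0020, ENSBTAG00000043570 from -0.15 to 0.066, ENSBTAG00000043558 from -0.022 to 0.090, ENSBTAG00000043550 from -0.034 to 0.013 and ENSBTAG00000043567 from -0.095 to 0.099. The cause of these changes was not tested.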
